A study of Mus musculus with 6 samples.

Results

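MicroRNA (miRNA) genes lie inside the 4 mouse Hox clusters, and the levels of 6 of them were compared between pluripotent cells and cells exposed to retinoic acid (RA). The members were the genes named mir-10a, mir-10b, mir-615, mir-196b, mir-196a-1 and mir-196a-2, which are 6 of the 898 miRNA genes in the small-RNA sequencing table and were chosen by name and place. In the gene annotation, no other miRNA of the table lay between the outermost Hox genes of a cluster. The ESC group was the E14Tg2a mouse embryonic stem cell line kept without feeder cells in leukemia inhibitory factor (LIF), and the NC group (neuronal cells) was the same line after LIF was withdrawn and 1 µM RA was given for 48 h. Each group had 3 libraries, both groups came from this 1 line, and the authors' methods give total RNA from a pair of culture plates. LIF withdrawal and RA always went together, so that their parts in any difference cannot be told apart.

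A miRNA is cut from a hairpin of a longer transcript into a mature strand of about the same short length for every gene, and bases 2 to 8 of that strand, the seed, pair with target mRNAs. Hox genes encode transcription factors that give the body axis its regional identity, and RA is known to switch them on in order, from the 3′ end of each cluster (low gene numbers) towards the 5′ end (high numbers). The miR-10 and miR-196 families are known to bind Hox mRNAs, and miR-196 can direct the cleavage of Hoxb8 mRNA.

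The mature sequences are shown because they decide which members share a seed, which differ by only 1 base and which give the same strand. Sequences are from RefSeq (mouse GRCm38.p6), 5′ to 3′, with the seed in capitals.
miR-10a-5p: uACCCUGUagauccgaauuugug
miR-10b-5p: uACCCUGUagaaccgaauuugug
miR-196a-5p: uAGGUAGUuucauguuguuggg
miR-196b-5p: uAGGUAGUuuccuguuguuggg
miR-615-5p: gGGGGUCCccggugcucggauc
miR-615-3p: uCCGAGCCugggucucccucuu
The 6 genes therefore carry 3 unrelated kinds of mature strand. miR-10a-5p and miR-10b-5p are 23 bases long and differ only by U12A, with positions counted from 1 at the 5′ end and miR-10a-5p given first. miR-196a-5p and miR-196b-5p are 22 bases long and differ only by A12C, with miR-196a-5p first. Each pair shares its seed, and no other mature miRNA in the RefSeq table has either seed. miR-196a-5p is the same from mir-196a-1 and mir-196a-2, so a read of that strand cannot be assigned to either copy. The deposited values are per gene, and which arm of a hairpin the reads came from was not analysed here.

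The place of each gene was taken from the GRCm38 (mm10) annotation, with neighbours measured to the coding sequences of the Hox genes. mir-10a lies at chr11:96317165-96317274 on the plus strand, 1495 bases 5′ of Hoxb4 and outside any other annotated gene. mir-10b lies at chr2:74726070-74726137 on the plus strand, 1141 bases 5′ of the Hoxd4 coding sequence and in introns of the Hoxd3 and Hoxd4 gene models. mir-615 lies at chr15:103014910-103015001 on the plus strand, in an intron of Hoxc5. These 3 genes sit beside Hox genes numbered 4 and 5. mir-196b lies at chr6:52230081-52230165 on the minus strand between Hoxa10 and Hoxa9, 3976 bases from the Hoxa9 coding sequence and overlapping an exon of a long Hoxa9 model. mir-196a-1 lies at chr11:96265164-96265265 on the plus strand between Hoxb13 and Hoxb9, outside any other gene. mir-196a-2 lies at chr15:102973350-102973434 on the plus strand between Hoxc10 and Hoxc9, in an intron of a long Hoxc5 model. The 3 mir-196 genes are thus the ones towards the 5′ end, each beside the Hox9 gene of its cluster.

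**Figure D1:**
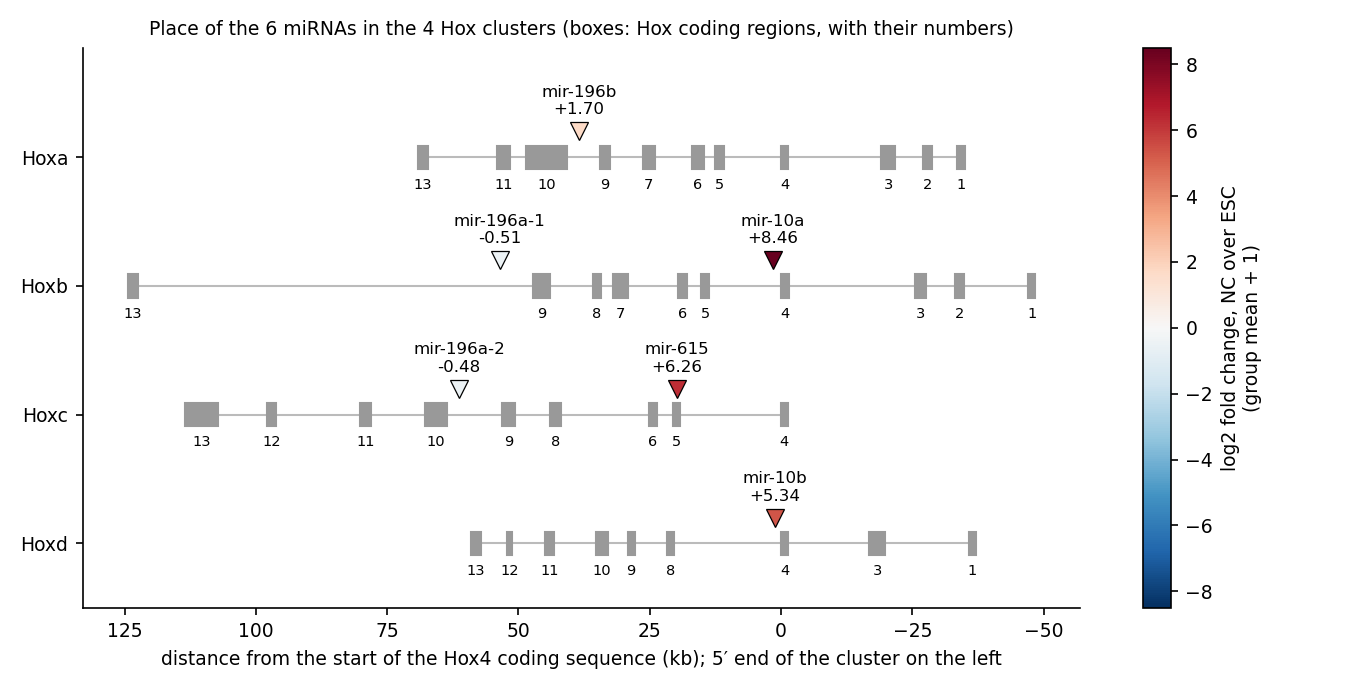
The 4 Hox clusters drawn to scale, with distance in kb from the start of the Hox4 coding sequence on the x axis, Hox coding regions as numbered boxes and the 6 miRNA genes as triangles coloured by the log2 fold change of the group means plus 1. The triangles near Hox4 and Hox5 carry 5.34 to 8.46, and those near Hox9 carry -0.51 to 1.70.

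The table holds 1 mean normalised read count per gene and group (reads divided by a size factor that corrects for library depth). Because the means are written to 10 decimals, the whole reads of the single libraries could be worked back for 538 of 549 genes above 0 in ESCs and for 582 of 602 in NCs. The resolved genes held 21.9% of the summed means in ESCs and 10.4% in NCs. The most abundant miRNAs stayed unresolved, so the full depth of a library is not known here. The resolved reads of a library ran from 99810 to 386762. The letters A, B and C name the libraries of a group from the largest to the smallest size factor; they are no replicate numbers from the labels. Library C stood apart in both groups: over 258 miRNAs, log2 values of C minus the mean of A and B had an SD of 1.33 in ESCs and 1.18 in NCs, against an SD of 0.35 and 0.25 for A minus B. Across these miRNAs the deviations of the C libraries of ESCs and NCs had a Pearson correlation of 0.82, where each point shares its library's size factor. For each tested member, values without the C libraries are therefore given below. The labels name no batch that links the C libraries of the groups. Among marker miRNAs, all 7 tested of 13 embryonic stem cell genes were called lower in NCs (limma, Benjamini-Hochberg). Of 8 tested neuronal genes, 3 were called higher, beside 5.68% lower and 10.1% higher among all 317 miRNAs tested. These 3 were mir-219a-2 and the gene copies mir-138-1 and mir-138-2, which had near-equal reads and are not independent. mir-219a-2 held 1, 1 and 0 ESC reads and passed the filter of 10 reads in 3 libraries only through NCs. Among those called lower, mir-302a, mir-302c and mir-302d reached 10 reads in all 3 libraries only in ESCs. With the library set (C against A and B) as a covariate, the counts were 7 lower and 7 higher, beside 21.5% and 23.7% of all. The 7 higher were gene copies of mir-9, mir-138 and mir-219a. mir-124, the defining neuronal miRNA, was near the detection limit, with group means of 2.09 to 2.70 over its 3 gene copies in ESCs and 5.19 to 6.02 in NCs. Of 9 muscle genes 3 were above 0, the highest being mir-499 with means of 17.8 and 10.2, and the summed means of 2 endoderm genes were 0.411 in ESCs and 0 in NCs. Of 3 blood genes, mir-142 had means of 924 and 357 and was called lower only with that covariate (limma adjusted p = 0.350 without it and 0.000562 with it), and the other 2 were near the detection limit.

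The genes beside Hox4 and Hox5 had the largest differences among the 6 members. mir-10a had an authors' mean of 2136 normalised reads in ESCs and 754551 in NCs, 353-fold more, and went from rank 37 to rank 1 among the 634 miRNA genes above 0 in either group. Its log2 fold change of 8.46 (means plus 1) was the highest of all 634. In ESCs its 3 libraries held 2343, 2085 and 1980 normalised reads (from 3801, 1955 and 1084 reads), a spread of 8.74% of the mean (coefficient of variation, n = 3). In ESCs mir-10a was therefore already well above the limit of 3 reads per library, which corresponds to a mean of 3.51. Its NC libraries could not be resolved, so the difference has a size and no test.

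mir-10b had an authors' mean of 1375 normalised reads in ESCs and 55789 in NCs, 40.6-fold more, and went from rank 50 to rank 4. Its ESC libraries held 1722, 1463 and 941 normalised reads (2794, 1371 and 515 reads), so library C was the lowest, and the coefficient of variation was 28.9% (n = 3). The log2 fold change of 5.34 was the seventh highest of 634. As for mir-10a, its NC libraries could not be resolved and no test was made.

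The balance between these near-identical strands also differed between the groups. In ESCs, the ratio of mir-10a to mir-10b reads was 1.36, 1.43 and 2.10 in libraries A, B and C. The ratio of the authors' means was 1.55 in ESCs and 13.5 in NCs. Whether reads with a mismatch were accepted in counting is not given in the sources used here, and reads of miR-10a-5p counted as miR-10b-5p, which 1 base would allow, were not tested.

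mir-615, inside a Hoxc5 intron, went from the edge of detection to a clear signal. Its ESC libraries held 0, 1 and 0 reads, and its NC libraries held 220, 105 and 62 reads, or 95.4, 108 and 106 normalised reads. All NC libraries lay above all ESC libraries, and the NC values had a coefficient of variation of 6.43% (n = 3). Since ESCs gave only 1 read, the fold is best given from the counts: 387 reads against 1, a depth-corrected ratio of 311 with an exact 95% interval (Clopper-Pearson) of 55.5 to 12308.5, which covers counting error only. The limma-voom log2 fold change was 7.08 (SE 0.57, adjusted p = 0.000465, n = 3 per group), a value that depends on the small count the method adds to 0. With libraries A and B alone it was 7.16 (SE 0.60, limma adjusted p = 2.34e-07). mir-615 passed the filter of 10 reads in 3 libraries only through its NC libraries, so that a tested mir-615 had to differ and the p adds nothing to the counts. Its group mean of 103 placed it at rank 161 of NC miRNAs.

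**Figure D2:**
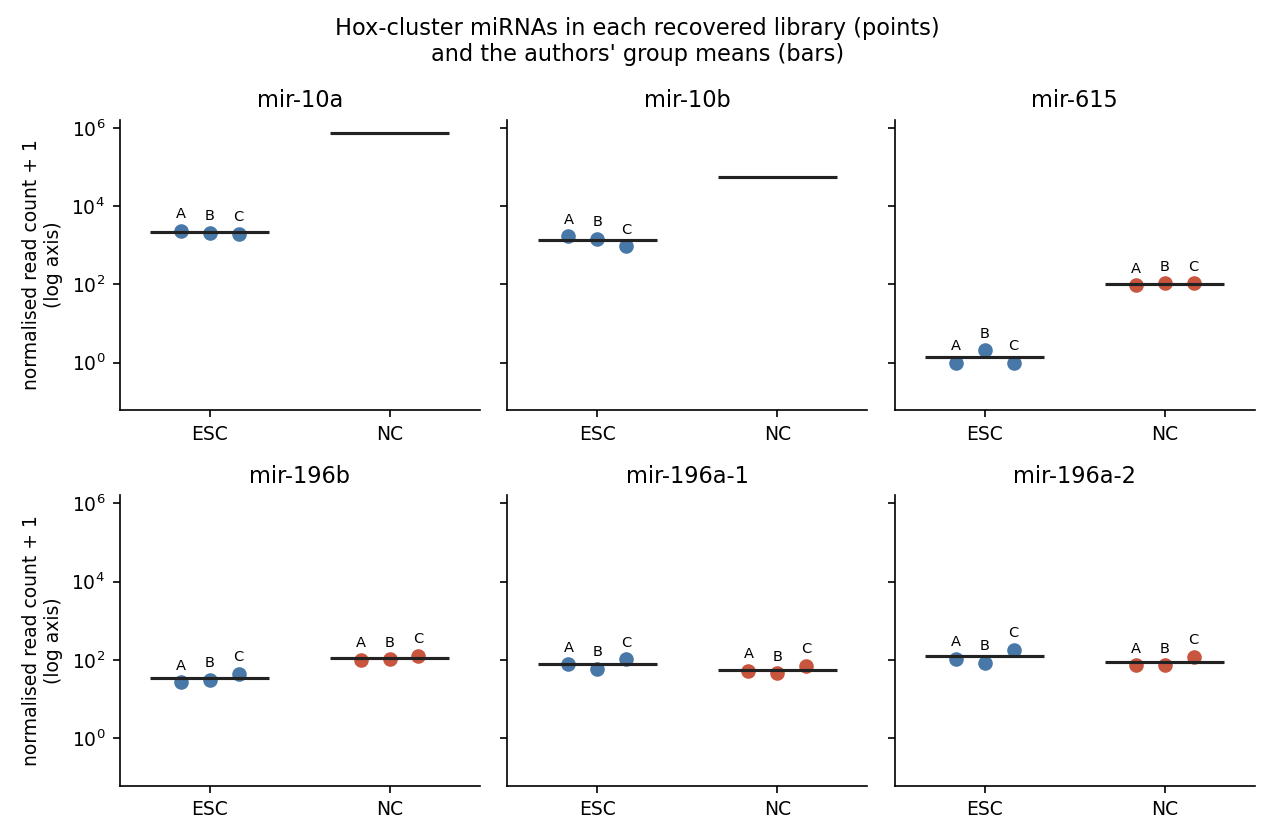
Normalised read count plus 1 (log axis) of each Hox-cluster miRNA in the ESC and NC libraries A, B and C (points), with the authors' group means as bars. The NC groups of mir-10a and mir-10b have a bar only, since their libraries were not resolved; in mir-615 and mir-196b all NC points lie above all ESC points, and in both mir-196a copies the points of the groups overlap.

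Among the 3 mir-196 genes, only mir-196b passed the test. Its libraries held 25.9, 29.9 and 43.8 normalised reads in ESCs (42, 28 and 24 reads) and 98.8, 102 and 128 in NCs (228, 100 and 75 reads). All NC libraries were above all ESC libraries, with means of 33.2 ± 9.43 and 110 ± 16.1 (SD, n = 3 each). The limma-voom log2 fold change was 1.82 (SE 0.28, adjusted p = 0.0079), and the fold of the authors' means was 3.31. Without ESC library A the log2 fold change was 1.61 and the call was lost (limma adjusted p = 0.0677); it was kept in the other 12 alternatives. The alternative with libraries A and B alone gave 1.86 (SE 0.21, limma adjusted p = 6.24e-06).

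mir-196a-1 held 76.4, 58.7 and 104 normalised reads in ESC libraries and 51.6, 45.0 and 70.1 in NC libraries. mir-196a-2 held 105, 83.2 and 179 in ESCs and 71.1, 71.7 and 120 in NCs. For both copies the groups overlapped, and library C was the highest of its group. Each NC library was below the ESC library of the same letter, but the letters only rank size factors and make no pairs. The limma-voom log2 fold changes were -0.51 (SE 0.30, adjusted p = 0.358) for mir-196a-1 and -0.45 (SE 0.37, adjusted p = 0.543) for mir-196a-2, so neither passed the test. With the library-set covariate, the values were -0.50 (SE 0.17, limma adjusted p = 0.0373) and -0.46 (SE 0.15, limma adjusted p = 0.0332). Both copies were then called lower in NCs. That set was defined by size factor and not by the labels, so these p-values are no adjustment for a known batch. With A and B alone the log2 fold changes were -0.48 and -0.42, with limma adjusted p-values of 0.0569 and 0.0545. These copies give 1 mature strand and are not independent.

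Within a library, the ratio of 2 miRNAs does not depend on the size factor. The ratio of mir-196b reads to the reads of both mir-196a copies was 0.143, 0.211 and 0.155 in ESC libraries A, B and C and 0.806, 0.877 and 0.676 in NC libraries. Copies of other genes had near-equal reads, such as 17799 for mir-26a-1 and 17796 for mir-26a-2 in ESC library A. A read of miR-196a-5p may thus be counted in both of its copies, which was not tested. The level of this ratio may then be too low, and it does not rank mir-196b against mir-196a. The groups did not overlap, and the mean ratio was 0.169 ± 0.036 in ESCs and 0.786 ± 0.102 in NCs (SD, n = 3 each), 4.64-fold higher. A two-sided exact permutation test gave p = 0.1, the smallest value that 3 against 3 libraries allow. The ratio of mir-196a-1 to mir-196a-2 was 0.729, 0.705 and 0.582 in the ESC libraries against 0.726, 0.629 and 0.586 in the NC libraries. The means of 0.672 ± 0.079 and 0.647 ± 0.072 differed by less than the spread (exact permutation p = 0.9). The share of copy-specific reads in these counts is not known, so that the latter ratio is no measure of the activity of each copy.

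**Figure D3:**
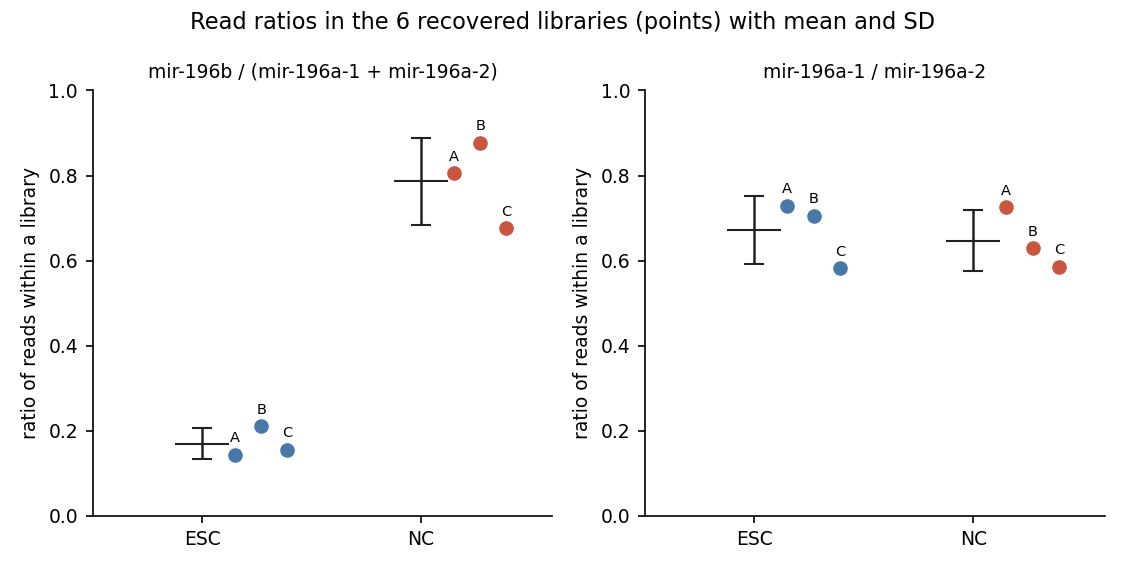
Ratio of reads within each library (points A, B and C) with the group mean and SD, for mir-196b over both mir-196a copies (left) and for mir-196a-1 over mir-196a-2 (right). On the left the ESC points lie between 0.143 and 0.211 and the NC points between 0.676 and 0.877, and on the right the groups overlap. The sum of both copies may hold a shared read more than once.

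Of the 6 genes, 4 could be tested, and 2 (mir-615 and mir-196b) were called higher in NCs and 0 lower at an adjusted p under 0.05 (limma-voom). No mir-196a copy had an unadjusted p under 0.05, and limma-trend also called 2 members higher and 0 lower. Since mir-615 entered through its NC libraries alone, the count that does not depend on that is 1 of 3, which is also the count with at least 10 reads required in every library. Over the whole table, limma called 10.1% of the 317 miRNAs tested higher and 5.68% lower. With the library set as a covariate 2 members were called higher and 2 lower, beside 23.7% and 21.5% of all miRNAs tested. Every NC library was above every ESC library in 2 of the 4 resolved members, and below in 0. Among the 309 miRNAs resolved in both groups whose mean reached 10, the shares were 17.5% (above) and 14.2% (below). mir-615 reached that mean only through its NC libraries and so had to lie above. Without it, the count above is 1 of 3. The log2 fold change of the group means had a median of 0.068 over all 634 miRNAs and ran from -1.34 at the lowest 5% to 1.81 at the highest 5%. mir-10a, mir-10b and mir-615 lay above this span. mir-196b at 1.70 had rank 37, and both mir-196a copies lay inside the span.

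**Figure D4:**
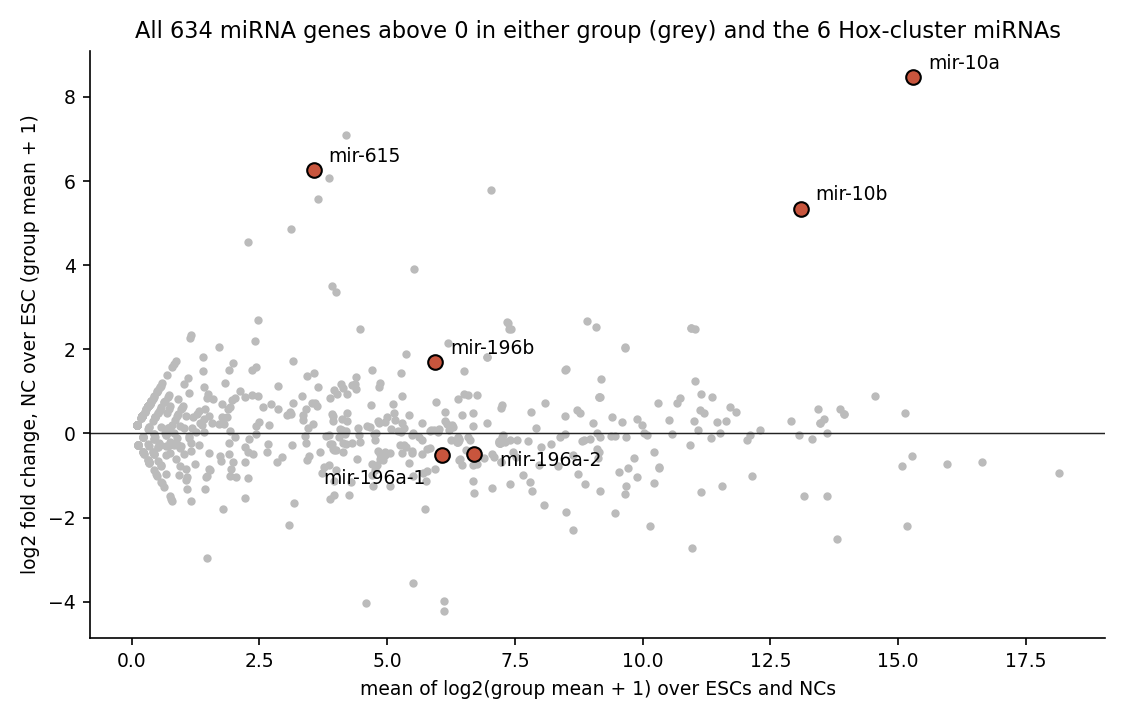
Log2 fold change of the group means plus 1 against the mean log2 level for all 634 miRNA genes above 0 (grey) and the 6 Hox-cluster genes (red). mir-10a at 8.46 and mir-10b at 5.34 lie above the grey points of similar level, while mir-196a-1 and mir-196a-2 lie within the bulk.

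The miR-10 pair held a large part of the whole miRNA signal in NCs. The 6 genes held 0.325% of the summed normalised means in ESCs and 50.6% in NCs. mir-10a alone took 0.185% and 47.1%, and mir-10b 0.119% and 3.48%. Together the mir-196 genes held 0.0204% in ESCs and 0.0158% in NCs, and mir-615 held 0.00642% in NCs. With mir-10a left out of both sums, the other members went from 0.140% to 6.62%. In NCs nearly all of this was mir-10b, with a mean of 55789 against 110 for mir-196b, the next highest member. The scaling between groups matters for the small differences. Scaling both groups to the same sum without mir-10a moved log2 fold changes up by about 0.44. This gave -0.080 for mir-196a-1, -0.044 for mir-196a-2 and 2.13 for mir-196b. With mir-10a kept in the sum, the values moved down, to -0.98, -0.95 and 1.23. In such bulk RNA, a change in the number of cells of a type and a change in RNA per cell cannot be told apart.

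The order of the levels (normalised reads, for mature strands of nearly equal length) also differed between the groups when each gene copy was ranked on its own. In ESCs it ran mir-10a, mir-10b, mir-196a-2, mir-196a-1, mir-196b and mir-615. The libraries of the mir-196a copies overlapped there, and those of mir-196b lay below both. In NCs it ran mir-10a, mir-10b, mir-196b, mir-615, mir-196a-2 and mir-196a-1, and the libraries of mir-196b, mir-615 and mir-196a-2 overlapped. With the means of both mir-196a copies summed, mir-196a stood at 202 in ESCs and 143 in NCs. Both sums were above mir-196b, at 33.2 and 110, so the difference in order depends on how the copies are counted.

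Relatives outside the Hox clusters were compared because they share part of these sequences. miR-99a-5p and miR-100-5p belong to the wider miR-10 family with a seed of their own, and let-7a-5p, of the family that marks differentiated cells, carries the miR-196 seed letters shifted by 1 base.
miR-99a-5p: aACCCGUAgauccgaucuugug
miR-100-5p: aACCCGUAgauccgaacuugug
let-7a-5p: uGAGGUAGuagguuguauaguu
The longest run that miR-10a-5p shares with miR-99a-5p is 10 bases and with miR-100-5p 11 bases, and miR-196a-5p and let-7a-5p share 7. Of the miR-99 and miR-100 genes, both that could be tested rose. mir-99a went from a mean of 16.5 to 973 (limma log2 fold change 5.84, SE 0.30, adjusted p = 9.34e-05) and mir-100 from 10.9 to 177 (4.73, SE 0.54, adjusted p = 0.00169). mir-100 had 6, 5 and 13 reads in its ESC libraries and so reached the filter through NCs. mir-99b was the most abundant of this list, with means of 10576 and 13468 and no test. The median log2 fold change of the list (means plus 1) was 3.90, beside 0.068 over all miRNAs. mir-125b-1 and mir-125b-2, made from transcripts that also carry mir-100 or mir-99a, rose with log2 fold changes of 3.08 (SE 0.50, limma adjusted p = 0.00891) and 3.10 (SE 0.52, limma adjusted p = 0.00923), and share a mature strand. mir-125a was the most abundant miR-125 gene, with means of 8614 and 8399 and no test.

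Of 11 let-7 genes tested, limma called 2 higher and 0 lower, beside 10.1% and 5.68% of all miRNAs tested. The median log2 fold change of the 13 in the table was -0.029. At an unadjusted p under 0.05, 3 let-7 genes were higher and 2 lower. Those called were let-7c-1 (1.56, SE 0.26, limma adjusted p = 0.00923) and let-7c-2 (1.56, SE 0.27, limma adjusted p = 0.00936), which share a mature strand and had the highest means of the family, 212 and 210 in ESCs and 612 and 604 in NCs. With the library set as a covariate, 3 let-7 genes were higher and 4 lower, beside 23.7% and 21.5% of all.

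**Figure D5:**
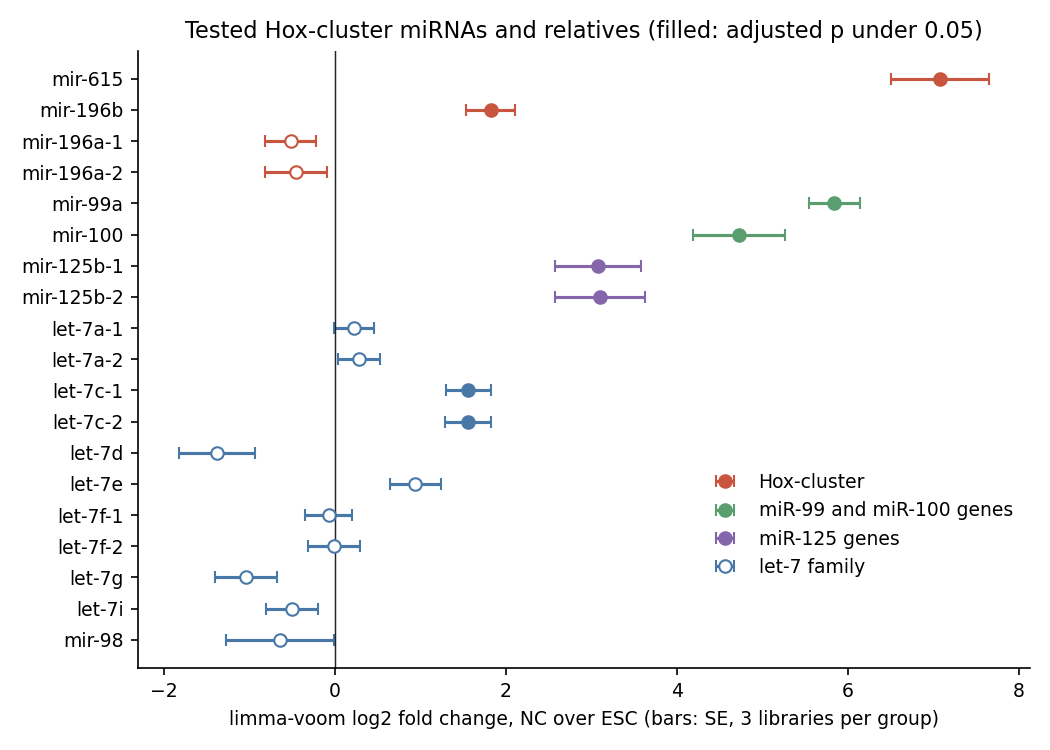
Limma-voom log2 fold change of NC over ESC with its SE (3 libraries per group) for the 4 tested Hox-cluster miRNAs and the tested miR-99, miR-100, miR-125 and let-7 genes; filled points have an adjusted p under 0.05. mir-615 (7.08), mir-99a (5.84) and mir-100 (4.73) lie farthest to the right, and the open points of mir-196a-1 and mir-196a-2 lie just left of 0.

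The miRNAs with the most similar pattern were picked over the 6 libraries by the root mean square difference of centred log2 values (normalised reads plus 1), among 611 miRNAs resolved in both groups and outside the Hox clusters. For mir-615 they were mir-217 (difference 0.45), mir-99a (0.58) and mir-219a-2 (0.84). Of these, mir-217 averaged 0.767 normalised reads in ESCs against 118 in NCs, while mir-219a-2 averaged 0.561 against 214. For mir-196b they were mir-412 (0.21), mir-188 (0.23) and let-7c-1 (0.28), which had log2 fold changes of 1.51, 1.47 and 1.53 (means plus 1). mir-196a-1 was closest to let-7i (0.072), mir-6540 (0.14) and mir-145a (0.17). mir-196a-2 was closest to mir-139 (0.11), let-7i (0.13) and mir-497 (0.14). let-7i, named for both mir-196a copies, had means of 156 in ESCs and 111 in NCs.

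mir-10a and mir-10b could be matched only on the log2 fold change of their group means plus 1. The closest to mir-10a were mir-219a-2 (7.11), mir-217 (6.08) and mir-99a (5.80), all at least 1.36 below it. The closest to mir-10b were mir-216b (5.58), mir-99a (5.80) and mir-1251 (4.87). The highest of these, mir-99a, reached a mean of 973 in NCs, against 55789 for mir-10b and 754551 for mir-10a.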

How the data were processed

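Small RNA of E14Tg2a cells in LIF (ESC, 3 libraries) and after 48 h of 1 µM RA (NC, 3 libraries) was sequenced by the authors. The deposited table holds, for 898 miRNA genes, a signal made by the authors: the mean of reads divided by size factors in each group. The submitters' processing notes name mm10 and DESeq; aligner, counting rule and versions are not given in the sources used here. The table's columns of fold changes and p-values from the authors' own comparison were not used. No column of other samples was present.

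Whole reads per library were recovered by enumeration from the 10 decimals of the means, which gave size factors from 0.547 to 2.31 (4.21-fold). Every recovered set gave back its mean. In simulated data, 493 of 518 ESC and 536 of 568 NC miRNAs were resolved, each to the reads simulated. Total library depth stays unknown, since abundant miRNAs were not resolved, and a limit of 3 reads per library corresponds to a mean of 3.51 in ESCs and 3.17 in NCs.

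Recovered reads with the recovered size factors were tested with limma-voom (limma 3.58.1, R 4.3.3) on every miRNA that reached 10 reads in at least 3 libraries, and p-values were adjusted by Benjamini-Hochberg over the 317 tested. The library values are derived from the means. In simulated data of NC against ESC with 611 miRNAs, 105 of 105 tested 4-fold changes were called and 2.78% of calls were false. The simulated counts held no deviation of the C libraries like that in the data, so these rates need not hold here. Fold changes of group means used log2(mean + 1), with no test. Ratios were compared by exact two-sided permutation (scipy). The authors' methods state for RNA-seq that replicate samples were processed separately, and the labels only number the replicates. The p-values measure the spread between these samples of 1 line.

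Named miRNAs were the 6 members; the 3 nearest patterns to each; and, from lists of relatives, those past the test and the most abundant. The members, lists and tests were chosen with earlier results of these data known. Alternatives were other scalings, filters, pseudocounts, limma-trend, a library-set covariate and leaving out libraries. Gene places came from GENCODE M21 (GRCm38, the build the notes name), which held all 6 genes, and mature sequences from RefSeq, which held those of all 6.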

Additional observations from a re-analysis of the deposited data

How the results depend on the processing

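All 62 alternative values of the members' log2 fold changes kept their direction, but many of them could not have turned it. A pseudocount cannot change a sign, nor can leaving out a library of mir-615 or mir-196b, whose groups do not overlap. For mir-10a and mir-10b, only ESC libraries could be left out. Scaling to the same summed signal gave 7.99 for mir-10a, 4.87 for mir-10b, 5.79 for mir-615, 1.23 for mir-196b and -0.98 for mir-196a-1. Scaling without mir-10a gave 8.90 for mir-10a, 6.70 for mir-615, 2.13 for mir-196b and -0.080 for mir-196a-1. mir-615 stood at 6.92 with a pseudocount of 0.5 and 4.33 with 5, since its ESC mean is below 1. Leaving out 1 library gave 6.08 to 6.70 for mir-615, the highest without ESC library B, which held its only ESC read.

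The count of members called by limma was 1 where every library had to hold 10 reads (mir-615 was then not tested), 4 with the library-set covariate, and 1 to 2 with 1 library left out, the 1 being without ESC library A. Over all miRNAs the 50 calls became 30 with 10 reads in every library, 143 with the covariate, 162 with libraries A and B alone, and 17 to 52 with 1 library left out: for ESC libraries A and B the counts were 17 and 19, and for NC libraries A and B 31 and 22. The fold between groups of the ratio of mir-196b to mir-196a was 4.30 to 5.28 with 1 library left out, an alternative chosen after seeing the data. The members' share of the signal without mir-10a was 0.140% in ESCs and 6.62% in NCs, the latter nearly all from mir-10b. With gene copies counted once, the share of all members was 52.0% in NCs.

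No paired analysis was possible because no replicate number is attached to a library here; the library-set covariate blocks only C against A and B, by size factor. mir-10a and mir-10b have no NC spread, so their differences have no test. Reads near 1 per library limit mir-615 in ESCs.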
